A study of Mus musculus with 6 samples.

Results

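The interleukin-1 (IL-1) family and its inflammasome were described through 9 genes of the count table, chosen by symbol: the ligands Il1a, Il1b and Il18, the soluble antagonists Il1rn and Il18bp, the receptor chains Il1r2 and Il1rap, and the processing genes Nlrp3 and Casp1. All 9 symbols matched 1 Ensembl mouse gene each, among 26519 genes in the table, and all 9 passed the filter on low counts. RNA sequencing measured tumour-infiltrating dendritic cells taken on day 10 from MC38 tumours, a mouse colon carcinoma line, grown in wild-type (WT) mice or in mice with a MAVS knockout (MAVS KO), with 3 libraries in each group. MAVS is a mitochondrial adaptor that relays RNA sensing by RIG-I and MDA5, and the design asks how its absence in the host affects the dendritic cells of the tumour. The labels give no age, sex or strain of the mice and do not say how the knockout was made, how the cells were sorted, whether tumours were pooled, or whether each library came from a separate mouse, so each p-value reflects just the spread among these libraries, which may be technical. Mavs, the targeted gene, stood at 33.9, 39.7 and 39.7 CPM (library-scaled counts) in WT and at 8.99, 12.8 and 9.45 CPM in MAVS KO libraries, lower in every library of the knockout but not absent, and the labels do not give the deleted part. Genes of the labelled cell type were present in every library, but Flt3 (34.1 to 73.3 CPM in WT, 10.8 to 15.5 CPM in MAVS KO) and Zbtb46 (15.3 to 27.5 and 6.96 to 10.8 CPM) were called lower in MAVS KO. The 10 macrophage markers summed to more than the 10 dendritic cell markers. These sums came mostly from Lyz2 and from H2-Ab1, so they do not compare the numbers of cells.

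IL-1 alpha and IL-1 beta signal through the same receptor, a chain encoded by Il1r1 that recruits the accessory chain encoded by Il1rap. The receptor antagonist encoded by Il1rn occupies that receptor without signalling, and the decoy receptor encoded by Il1r2 binds IL-1 without passing on a signal. IL-1 beta and IL-18 are made as inactive precursors that caspase-1 cleaves once an inflammasome such as that of NLRP3 has assembled, whereas the precursor of IL-1 alpha is already active, and the binding protein encoded by Il18bp captures free IL-18. In myeloid cells the transcripts of Il1a, Il1b and Il1rn are induced by microbial and inflammatory signals, and Il18bp is a known target of interferon-gamma.

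The promoters of the 3 called genes, Il1a, Il1rn and Il18bp, and that of Il1b, the neighbour of Il1a, are shown because the results below turn on these 4 genes. Each window holds the 250 bases before a RefSeq start site (GRCm38.p6), 5′ to 3′ on the strand of the gene, and capitals mark a match to 1 of the 6 searched motifs. Il1a lies on the minus strand at chr2:129309973-129310222, Il1b on the minus strand at chr2:129371140-129371389, Il1rn on the plus strand at chr2:24336610-24336859 and Il18bp on the minus strand at chr7:102018233-102018482. For Il1rn, which has 3 RefSeq starts, the start near those of 3 of 6 GENCODE transcripts is shown, and the Il18bp start is near that of 1 of 4. The other Il1rn windows, beginning at 24345041 and 24345121 on chromosome 2, held no match to the searched motifs. Counts per gene do not tell which start was used.
Il1a: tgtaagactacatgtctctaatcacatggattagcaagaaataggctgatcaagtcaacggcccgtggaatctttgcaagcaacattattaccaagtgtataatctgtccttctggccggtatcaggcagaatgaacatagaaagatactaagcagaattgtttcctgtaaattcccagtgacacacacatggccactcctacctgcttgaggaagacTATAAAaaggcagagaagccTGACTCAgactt
Il1b: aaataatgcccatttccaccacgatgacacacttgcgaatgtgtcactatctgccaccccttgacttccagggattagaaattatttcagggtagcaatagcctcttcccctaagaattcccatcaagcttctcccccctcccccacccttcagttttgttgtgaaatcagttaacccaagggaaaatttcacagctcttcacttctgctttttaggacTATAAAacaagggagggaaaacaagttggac
Il1rn: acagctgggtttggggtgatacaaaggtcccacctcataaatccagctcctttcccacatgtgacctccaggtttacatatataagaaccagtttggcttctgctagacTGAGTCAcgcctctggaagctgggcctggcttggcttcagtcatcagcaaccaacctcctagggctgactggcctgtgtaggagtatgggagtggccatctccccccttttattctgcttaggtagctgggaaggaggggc
Il18bp: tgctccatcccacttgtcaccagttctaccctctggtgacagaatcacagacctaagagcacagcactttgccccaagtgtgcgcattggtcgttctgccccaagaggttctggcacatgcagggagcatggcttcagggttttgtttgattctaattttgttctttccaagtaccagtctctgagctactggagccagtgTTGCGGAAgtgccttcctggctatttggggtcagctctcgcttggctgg
Il1a and Il1b each held a TATA box (TATAAA, searched on the strand of the gene), at 32 to 27 and 31 to 26 bases before the start, a motif found in 7.59% of 32851 windows of the same length. The AP-1 motif TGANTCA, found in 6.75% of windows on either strand, stood 12 to 6 bases before the Il1a start and 141 to 135 bases before the Il1rn start. The Il18bp window held 1 C/EBP motif (TTGCNNAA, 9.56% of windows), 49 to 42 bases before the start. The GAS motif TTCNNNGAA (7.02% of windows), the ISRE motif (2 copies of GAAA with any 2 bases between them, 2.98%) and the NF-kB consensus (7.25%) were not among the letters of these 4 windows. Of the remaining searched windows of the 9 genes, that of Il1r2 held a GAS motif and 1 of the Nlrp3 windows the NF-kB consensus. No motif other than TATAAA in Il1a and Il1b and AP-1 in Il1a and Il1rn was shared between genes.

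Il1a, Il1rn and Il18bp were called higher in MAVS KO libraries, and none of the 9 genes was called lower. These 3 of 9 calls compare with 354 of 12580 tested genes called in either direction (2.81%) and 222 called higher (1.76%), by the quasi-likelihood test of edgeR, with p-values adjusted over all tested genes (Benjamini-Hochberg, threshold 0.05). The libraries of the groups did not overlap for 6 of the 9 genes, Il1a, Il1b, Il1rn, Il18bp and Casp1 being higher and Il18 lower in MAVS KO, against 21.8% of all tested genes. The median log2 fold change of the 9 genes was 0.39, beside -0.0022 for all tested genes. The 9 genes were chosen with earlier results of these data known, so these contrasts with all tested genes are descriptive and no independent test. These are bulk libraries, in which fewer cells of a type and less RNA per cell cannot be told apart. Levels are given as counts scaled to library size by TMM (CPM), and fold changes are of MAVS KO over WT. The count of 3 was 1, Il1a, without MAVS KO replicate 2 or without MAVS KO replicate 3, and it was 5 with the DESeq2 Wald test, which added Il1b and Il18. Monocyte markers summed to 5705 to 6454 CPM in WT and 8583 to 17134 CPM in MAVS KO libraries, the difference coming mostly from Chil3, and mature migratory dendritic cell markers summed to 199 to 208 and 258 to 403 CPM. The dendritic cell markers Flt3, Zbtb46, Xcr1 and Cd209a fell, with log2 fold changes of -2.01, -1.20, -2.18 and -1.86 (edgeR adjusted p from 0.00806 to 0.0402). The rest of that list was not called. Itgax (0.25), Irf8 (0.21) and H2-Ab1 (0.03) had positive log2 fold changes, and Batf3 (-0.65), Ciita (-0.24) and Clec9a (-0.07) negative ones. The part of the cells marked by these lists in the results was not tested.

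**Figure D1:**
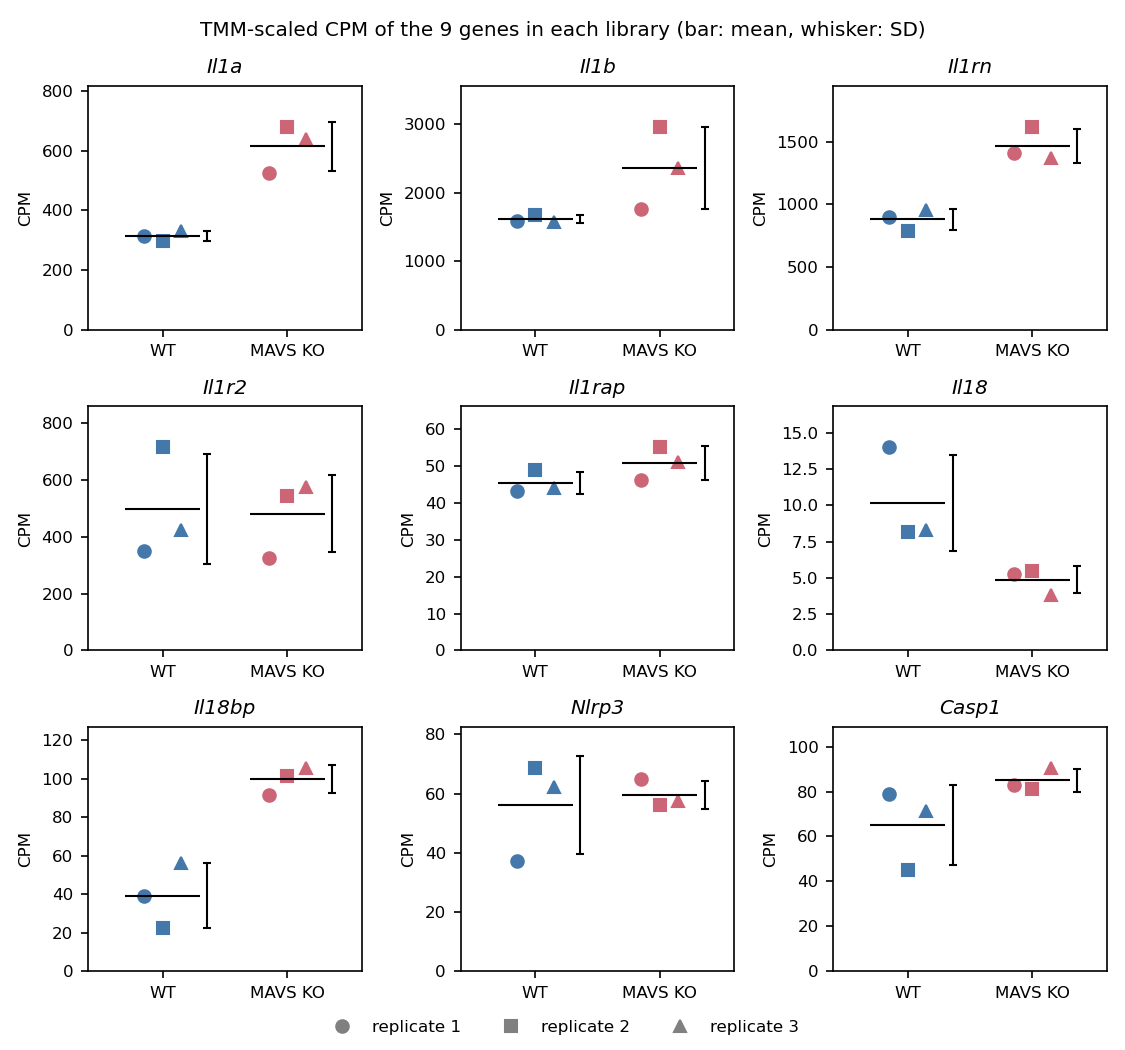
CPM of the 9 genes (vertical axes, from 0) in the 3 WT and 3 MAVS KO libraries, with marker shapes for the replicate numbers, bars for means and whiskers for the SD. Il1a, Il1b, Il1rn, Il18bp and Casp1 lie higher and Il18 lower in all 3 MAVS KO libraries, whereas Il1r2, Il1rap and Nlrp3 overlap.

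Among the ligands, Il1a (ENSMUSG00000027399, chromosome 2, 129299610 to 129309972, mm10) encodes IL-1 alpha, an alarmin released by damaged cells. It stood at 314, 296 and 330.2 CPM in WT replicates 1, 2 and 3, and at 524, 680.1 and 638 CPM in MAVS KO replicates 1, 2 and 3. The lowest MAVS KO library was thus well above the highest WT library, and the WT libraries lay close together. Il1a rose by 0.97 on the log2 scale (SE 0.12, 95% interval 0.71 to 1.23), a fold change of 1.96, and its adjusted p by edgeR was 0.00783. It was called in all 14 alternative fits, with adjusted p from 7.72e-13 to 0.0461. Il1a ranked 10 by p among the 12580 tested genes.

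Il1b (ENSMUSG00000027398, chromosome 2, 129364570 to 129371139) encodes IL-1 beta, the main IL-1 secreted after inflammasome activation. Its WT libraries held 1587, 1676 and 1576 CPM and its MAVS KO libraries 1767, 2962 and 2363 CPM. All 3 MAVS KO libraries were above all 3 WT libraries, but MAVS KO replicate 1 was near the WT values and the SD grew from 54.6 to 598 CPM (n = 3 each). The log2 fold change was 0.55 (SE 0.16, 95% interval 0.20 to 0.90), with an adjusted p of 0.102 by edgeR, so Il1b did not pass. Without MAVS KO replicate 1 it was 0.72 and passed (edgeR adjusted p = 0.0482), and without MAVS KO replicate 2 it was 0.36 (edgeR adjusted p = 0.317). Over the 14 alternatives its adjusted p ran from 5.4e-05 to 0.317.

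Il18 (ENSMUSG00000039217, chromosome 9, 50554827 to 50581840), whose product promotes interferon-gamma release by lymphocytes, had few counts. There were 284, 153 and 180 counts in WT and 94, 82 and 52 counts in MAVS KO libraries, or 10.2 ± 3.33 against 4.86 ± 0.919 CPM (SD, n = 3 each). Every MAVS KO library was below every WT library, and WT replicate 1 stood above the other WT libraries. The log2 fold change was -1.06 (SE 0.29, 95% interval -1.71 to -0.41), and the adjusted p of 0.0933 by edgeR did not pass. Over the 14 alternatives its adjusted p ran from 0.0165 to 0.287. Il18 overlaps Bco2 on the other strand by 355 bases, a gene at 1.33 to 7.79 CPM. Tex12, at most at 0.739 CPM, overlaps Il18 on that strand by 4507 bases. Since no strand option is given for the counts, reads in those stretches could belong to Il18 or to the overlapping gene.

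Of the antagonists, Il1rn (ENSMUSG00000026981, chromosome 2, 24336853 to 24351494) encodes the IL-1 receptor antagonist. Its levels were 898, 790.4 and 953 CPM in WT and 1408, 1618 and 1369 CPM in MAVS KO libraries. The groups were clearly apart. Il1rn rose by 0.73 on the log2 scale (SE 0.11, 95% interval 0.50 to 0.97), a fold change of 1.66, and passed with 0.0137 as the adjusted p by edgeR. Without MAVS KO replicate 2 or without MAVS KO replicate 3 the adjusted p by edgeR was 0.0517 and 0.058, with log2 fold changes of 0.66 and 0.78, and over the 14 alternatives it ran from 2.1e-08 to 0.058. Il1rn is on the same chromosome as Mavs but 107 Mb from it.

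Il18bp (ENSMUSG00000070427, chromosome 7, 102014885 to 102018690), which encodes the soluble inhibitor of IL-18, had the largest log2 fold change of the 9 genes in the fit reported. It stood at 39.0, 22.2 and 56.1 CPM in WT and at 91.8, 102 and 106 CPM in MAVS KO libraries. The MAVS KO libraries were close together, and the WT libraries were spread over a wider range below them. Il18bp rose by 1.35 on the log2 scale (SE 0.26, 95% interval 0.77 to 1.93), a fold change of 2.55, and passed with 0.0284 as the adjusted p by edgeR. The call depended on single libraries: it passed without WT replicate 2 or 3, and not without WT replicate 1 (edgeR adjusted p = 0.0763) or without MAVS KO replicate 1, 2 or 3 (edgeR adjusted p = 0.0734, 0.0963 and 0.123). The log2 fold change was 1.06 to 1.71 in these 6 fits, and the adjusted p over the 14 alternatives ran from 7.15e-17 to 0.123. Il18bp shares 80 bases with Numa1 on the other strand, a gene at 18.4 to 39.4 CPM.

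The receptor chains did not pass. Il1r2 (ENSMUSG00000026073, chromosome 1, 40074079 to 40125231), the decoy receptor, held 349.7, 715 and 425 CPM in WT and 326, 542 and 577 CPM in MAVS KO libraries. Both groups spread widely and overlapped, with the highest value in WT replicate 2 and the lowest in MAVS KO replicate 1. Its log2 fold change was -0.04 (SE 0.26, 95% interval -0.63 to 0.54, edgeR adjusted p = 0.963), and its sign turned without WT replicate 2 (0.31) or without MAVS KO replicate 1 (0.17). Il1r2 overlaps Gm37347 on the same strand by 3071 bases and Gm16894 on the other strand by 9624 bases. Gm37347 held 1.88 to 3.52 CPM and Gm16894 0.505 to 2.66 CPM. Il1rap (ENSMUSG00000022514, chromosome 16, 26581704 to 26730117), the accessory chain shared by the receptors for IL-1, IL-33 and IL-36, held 43.3, 48.9 and 43.9 CPM in WT and 46.2, 55.1 and 51.2 CPM in MAVS KO libraries, so the groups overlapped. Its log2 fold change was 0.16 (SE 0.13, 95% interval -0.12 to 0.44, edgeR adjusted p = 0.603), and -0.01 with library size alone.

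The inflammasome genes did not pass either. Nlrp3 (ENSMUSG00000032691, chromosome 11, 59541568 to 59566956), the sensor, stood at 37.3, 68.8 and 62.2 CPM in WT and at 64.8, 56.3 and 57.5 CPM in MAVS KO libraries. The MAVS KO values lay within the WT range. The log2 fold change was 0.09 (SE 0.20, 95% interval -0.36 to 0.53, edgeR adjusted p = 0.89), and it was -0.14 without WT replicate 1 and -0.08 with library size alone. Casp1 (ENSMUSG00000025888, chromosome 9, 5298517 to 5307265), the protease, stood at 78.8, 44.9 and 71.3 CPM in WT and at 83.0, 81.1 and 90.7 CPM in MAVS KO libraries. Every MAVS KO library was above every WT library, by a small margin over WT replicate 1. Its log2 fold change was 0.39 (SE 0.18, 95% interval -0.02 to 0.80, edgeR adjusted p = 0.346), and it was 0.17 without WT replicate 2, the library with the lowest Casp1, and 0.54 without WT replicate 1.

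**Figure D2:**
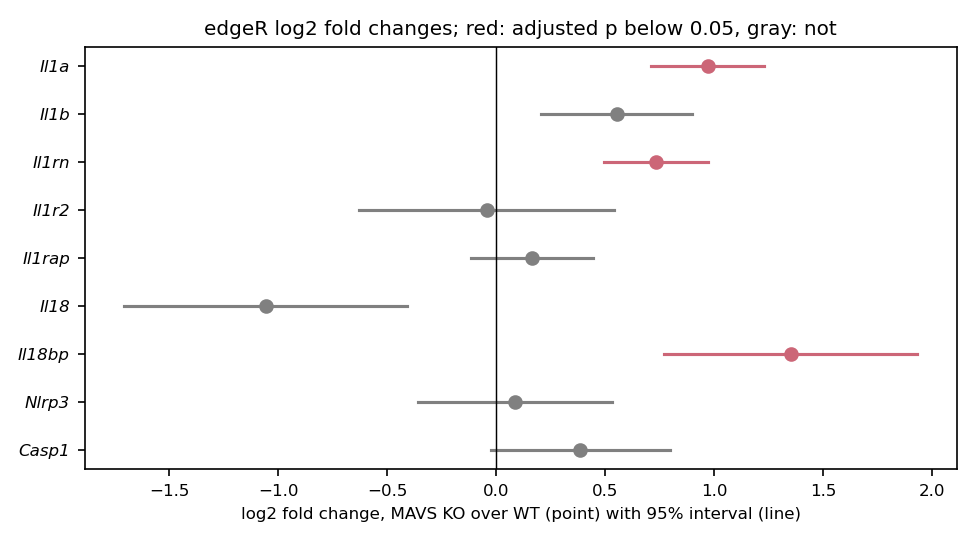
Log2 fold change of MAVS KO over WT (horizontal axis; points) with 95% intervals (lines) for the 9 genes, in red where the edgeR adjusted p is below 0.05. The intervals of Il1a, Il1rn, Il18bp, Il1b and Il18 lie on 1 side of 0, and the first 3 of these passed the adjustment over all genes.

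Levels were compared between genes as CPM per kilobase of annotated exon, a scale that sets exon length aside and rests on the union of all exons of a gene. Il1b was the most abundant of the 9 genes in both groups, at 846 ± 28.7 CPM per kilobase (SD, n = 3) in WT and 1240 ± 313 CPM per kilobase (SD, n = 3) in MAVS KO libraries. In WT it was followed by Il1r2 at 260 ± 101 and Il1a at 159 ± 8.60 CPM per kilobase (SD, n = 3 each), and by Il1rn at 143 to 172 CPM per kilobase. Il1rn and Il1a did not differ beyond their spread, and the lowest Il1r2 library, at 183 CPM per kilobase, lay just above the highest Il1rn library, at 172. In MAVS KO libraries these 3 genes were at 311 ± 40.8 for Il1a, 265 ± 24.3 for Il1rn and 252 ± 71.4 CPM per kilobase for Il1r2 (SD, n = 3 each), with overlapping ranges.

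Casp1 came next in both groups, at 43.4 ± 11.9 CPM per kilobase in WT and 56.7 ± 3.37 in MAVS KO libraries (SD, n = 3 each). In WT, Nlrp3 at 13.8 ± 4.09, Il18bp at 12.9 ± 5.60 and Il18 at 9.85 ± 3.23 CPM per kilobase overlapped (SD, n = 3 each). In MAVS KO libraries Il18bp stood at 33.0 ± 2.38, Nlrp3 at 14.7 ± 1.13 and Il18 at 4.72 ± 0.892 CPM per kilobase (SD, n = 3 each), and their ranges were apart. Il1rap was lowest in both groups on this scale, at 3.99 ± 0.266 in WT and 4.47 ± 0.395 CPM per kilobase in MAVS KO libraries (SD, n = 3 each), where it overlapped Il18.

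**Figure D3:**
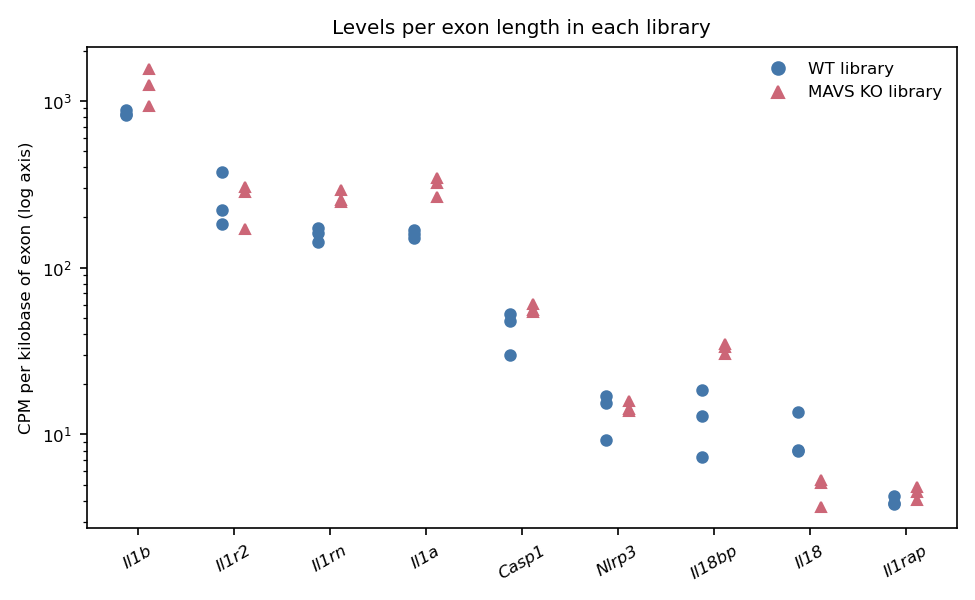
CPM per kilobase of exon on a log axis for the 9 genes, ordered by their WT mean, with circles for WT and triangles for MAVS KO libraries. Il1b is highest in every library, and Il18bp and Il18, which overlap in WT, are apart in MAVS KO libraries.

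Ratios of 2 genes within a library, which do not depend on the scaling between libraries, were set for Il1b and Il18 against their antagonists and for Il1a against Il1b. Il18bp had 2.79, 2.71 and 6.76 counts per count of Il18 in WT and 17.4, 18.5 and 27.8 in MAVS KO libraries. All 3 MAVS KO libraries were above all 3 WT libraries, and the difference of the log2 means was 2.48 (WT 1.89 ± 0.75, MAVS KO 4.38 ± 0.37, SD, n = 3 each). The exact two-sided permutation p was 0.1, the smallest that 3 against 3 libraries allow, or 0.15 adjusted over the 3 ratios. Both genes of this ratio entered with opposite log2 fold changes, and only that of Il18bp passed its own test.

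Il1a had 0.198, 0.177 and 0.209 counts per count of Il1b in WT and 0.297, 0.23 and 0.27 in MAVS KO libraries. The groups did not overlap, with a difference of 0.44 in the log2 means (exact permutation p = 0.1, adjusted p = 0.15). For Il1rn against Il1b the ratio was 0.566, 0.472 and 0.605 in WT and 0.797, 0.546 and 0.579 in MAVS KO libraries, which overlapped. The difference was 0.21 on the log2 scale (exact permutation p = 0.5, adjusted p = 0.5), with the highest ratio in MAVS KO replicate 1, the library with the lowest Il1b of its group. Without that library the difference was 0.05, and without WT replicate 2 it was 0.11.

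**Figure D4:**
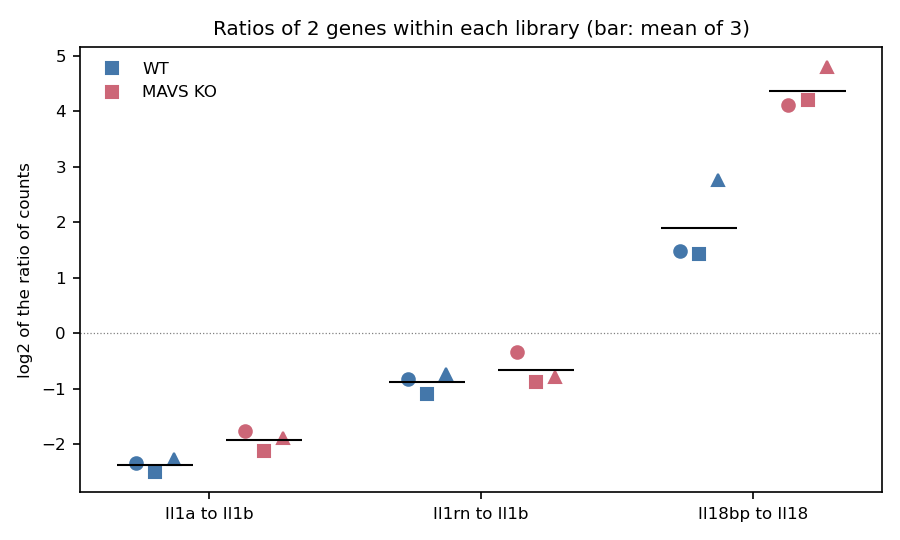
Log2 ratio of counts of 2 genes within each library for the 3 pairs, with WT in blue, MAVS KO in red, bars for the means of 3 libraries and marker shapes for the replicate numbers. The libraries of the groups are apart for Il18bp to Il18 and for Il1a to Il1b, and overlap for Il1rn to Il1b.

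The other genes of the pathway were set out in 5 lists with 54 genes, of which 44 were tested, 6 were below the filter and 4 were not in the table. Of the 44 genes, 1 was called higher, none was called lower and 43 did not pass, with a median log2 fold change of -0.04. Of those, 19 had a positive and 25 a negative log2 fold change, and for 8 of 44 the groups did not overlap, against 21.8% of all tested genes. At 1 of 44 the called share is near the 2.81% of all tested genes.

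The gene called higher was Ninj1, whose product ruptures the plasma membrane in the last step of lytic cell death. It stood at 189 ± 13.4 CPM in WT and 301 ± 24.3 CPM in MAVS KO libraries (SD, n = 3 each), so that its log2 fold change was 0.67 with an SE of 0.11 (edgeR, adjusted p = 0.0164), and it did not pass without MAVS KO replicate 1, 2 or 3 (edgeR adjusted p = 0.0526, 0.0709 and 0.0685). In the same list of 9 tested caspases, gasdermins and rupture genes, Casp4, the sensor protease for cytosolic lipopolysaccharide, had a log2 fold change of 0.62 with an SE of 0.16 (edgeR, adjusted p = 0.0791) and no overlap between groups. Gsdmd, the pore-forming substrate of the Casp1 and Casp4 products, stood at 141 ± 0.655 and 153 ± 7.71 CPM (SD, n = 3 each) and had a log2 fold change of 0.11 (95% interval -0.11 to 0.33). The median of this list was 0.11.

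None of 14 tested sensors and adaptors passed, and their median log2 fold change was -0.14. Nek7, a kinase that NLRP3 needs for assembly, stood at 93.8 ± 2.67 and 75.8 ± 4.20 CPM (SD, n = 3 each). Its log2 fold change was -0.31 with an SE of 0.11 (edgeR, adjusted p = 0.182). Nlrp10 had -1.70 with an SE of 0.84 (edgeR, adjusted p = 0.366) at a mean of at most 2.72 CPM. Pycard, the adaptor that links NLRP3 to caspase-1, stood at 69.2 ± 9.79 and 73.3 ± 3.80 CPM (SD, n = 3 each).

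Of 8 other receptors 5 were tested and none passed (median -0.13). Il1r1, the signalling receptor for IL-1, was scarce, at 3.32 ± 0.154 CPM in WT and 3.42 ± 1.08 CPM in MAVS KO libraries (SD, n = 3 each). Per kilobase of exon that was 0.522 and 0.538 CPM, against 260 and 252 CPM per kilobase for the decoy receptor Il1r2. Il18rap, the accessory chain for IL-18, stood at 13.3 ± 1.17 and 15.5 ± 1.52 CPM (SD, n = 3 each), while Il18r1, the chain that binds IL-18, was below the filter at 0.365 ± 0.423 and 0.295 ± 0.31 CPM (SD, n = 3 each). Il1rl2, the IL-36 receptor, stood at 55.5 ± 5.79 and 46.7 ± 7.20 CPM (SD, n = 3 each) and had a log2 fold change of -0.25 with an SE of 0.15 (edgeR, adjusted p = 0.475). Sigirr, an inhibitory receptor, had -0.78 with an SE of 0.35 (edgeR, adjusted p = 0.305), with all 3 MAVS KO libraries below WT.

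Of 6 other ligands only Il33 and Il36g were tested, and neither passed. Il36g was at 3.23 ± 1.92 CPM in WT and 1.27 ± 0.217 CPM in MAVS KO libraries (SD, n = 3 each; log2 fold change -1.33, SE 0.51, edgeR adjusted p = 0.222). Il33 was at 0.248 ± 0.384 and 1.23 ± 1.37 CPM (SD, n = 3 each; edgeR adjusted p = 0.396). None of 14 genes of signalling below the receptors passed, and their log2 fold changes were -0.37 to 0.26, with a median of -0.02. Ikbkb, a kinase that activates NF-kB, had -0.22 with an SE of 0.13 (edgeR, adjusted p = 0.449), and Irak3, an inhibitor of the receptor-associated kinases, had 0.26 with an SE of 0.17 (edgeR, adjusted p = 0.508).

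Il1a and Il1b lie next to each other on chromosome 2, 1.92 and 1.86 Mb from Mavs. The mean level of Mavs was 37.7 ± 3.32 CPM in WT and 10.4 ± 2.09 CPM in MAVS KO libraries (SD, n = 3 each). Its log2 fold change was -1.86 with an SE of 0.18 (edgeR, adjusted p = 0.0017). Within 15 Mb of Mavs 25 of 207 tested genes were called (12.1%), Mavs itself and Il1a among them, against 329 of 12373 elsewhere (2.66%). Within 1 Mb of the Il1a-Il1b pair, the pair included, 2 of 25 tested genes were called. These were Il1a itself and Sirpa, which encodes an inhibitory receptor of myeloid cells and lies 222 kb from the pair. Sirpa rose by 0.56 on the log2 scale with an SE of 0.10 (edgeR, adjusted p = 0.0225).

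The nearest coding genes of the pair did not pass, apart from Sirpa. Ckap2l, 2.40 kb away, had a log2 fold change of -0.71 with an SE of 0.25 (edgeR, adjusted p = 0.183), Slc20a1, 88.0 kb away, 0.13 with an SE of 0.13 (edgeR, adjusted p = 0.69), and Stk35, 429 kb away on the side of Sirpa, 0.66 with an SE of 0.33 (edgeR, adjusted p = 0.368). Noncoding genes overlap both members on the other strand: Gm14023 overlaps Il1a and held 10.3 to 14.6 CPM, and Il1bos overlaps Il1b and held 2.41 to 5.79 CPM, small beside the levels of Il1a and Il1b. Closeness to Mavs and loss of MAVS cannot be told apart for Il1a and Il1b. Il18bp is on another chromosome, and the cause of its higher level was not tested either.

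**Figure D5:**
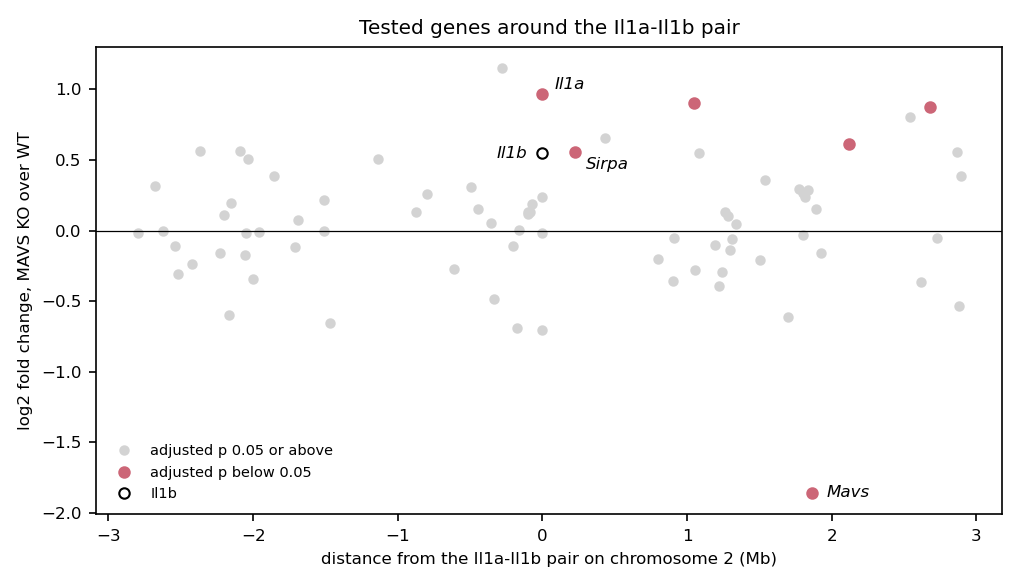
Log2 fold change of MAVS KO over WT (vertical axis) against the distance from the Il1a-Il1b pair (horizontal axis, Mb), for the tested genes within 3 Mb that had a count in every library, in red where the edgeR adjusted p is below 0.05. Il1a and Sirpa are the called genes within 1 Mb, and Mavs, at 1.86 Mb, has a log2 fold change of -1.86.

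The genes whose pattern over the 6 libraries was most like that of Il1a, Il1b and Il1rn were found by the root mean square difference of centred log2 CPM among tested genes with a mean of at least 20 CPM. For Il1a these were Arg2, an arginase (0.0762), Ptgs2, the inducible cyclooxygenase (0.106), and Bcl2a1b, a survival gene with near-identical copies (0.115). Ptgs2 stood at 328 ± 49.0 CPM in WT and 593 ± 70.8 CPM in MAVS KO libraries (SD, n = 3 each). All 3 genes were called higher. For Il1rn they were Ninj1 (0.0422), Bst1 (0.0614) and Sdc3 (0.0624), so that the membrane rupture gene called above had the library pattern nearest to that of Il1rn, and these 3 were also called higher. For Il1b they were Klra2 (0.096), Gnai2 (0.101) and Cebpg (0.105), none of which passed the test. The search used the same 6 libraries as the test. Whether these genes were called therefore largely follows from how they were picked and is no separate result.

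The remaining marker lists were summed in the same way. The 10 dendritic cell markers summed to 15602 to 17871 CPM in WT and 15420 to 18649 CPM in MAVS KO libraries, mostly from the class II gene H2-Ab1, and the 4 named above were its called members. Of 7 tested mature migratory markers 3 rose, Ccr7, Ccl22 and Cd200, and of 8 monocyte markers 1 rose, Chil3. Macrophage markers, led by Lyz2 and C1qb, summed to 26318 to 31548 CPM and 27961 to 35490 CPM, with none of 10 called. The groups did not overlap for 6 of these 10, C1qa, C1qb, C1qc, Mrc1 and Cd68 being higher and Apoe lower in MAVS KO libraries, with log2 fold changes of 0.26 to 0.64 and of -0.84 (edgeR adjusted p from 0.0634 to 0.211), against 21.8% of all tested genes. Neutrophil markers summed to 59.3 to 106 CPM and 97.5 to 104 CPM, with 1 of 5 tested called (Mmp8, higher). Of the 12 neutrophil markers Csf3r stood at 16.6 to 25.9 CPM over the 6 libraries, S100a8 at 4.32 to 9.79, Cxcr2 at 0.921 to 4.58 and Mmp9 at 0.899 to 48.6 CPM. The other 7, S100a9, Retnlg, Lcn2, Camp, Ngp, Ly6g and Stfa2l1, were below the filter and at most at 0.513 CPM.

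B cell markers summed to 31.4 to 52.2 CPM in WT and 10.2 to 12.0 CPM in MAVS KO libraries, with Ighm called lower, and mast cell markers to 21.7 to 31.5 and 9.83 to 14.2 CPM, nearly all from Kit, also called lower. T cell markers (12.3 to 13.5 and 7.36 to 18.5 CPM), natural killer cell markers (1.17 to 13.4 and 9.96 to 19.2 CPM), epithelial or tumour cell markers (363 to 541 and 419 to 676 CPM) and fibroblast markers (17.8 to 33.5 and 13.3 to 46.1 CPM) overlapped between groups, with none called. The epithelial or tumour cell sum came nearly all from Cdh1, while Krt8, Krt18 and Krt19 were below the filter. The part of the cells marked by these lists in the results was not tested.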

How the data were processed

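RNA was sequenced from 6 libraries (3 WT, 3 MAVS KO), with 14466640 to 20851733 counts each. The authors deposited raw read counts per Ensembl gene. The submitters' processing notes name mm10, HISAT2, HISAT, HTSeq and DESeq2, with no role, version or setting and no strand option. The labels' protocols name Trizol extraction. GENCODE M21 (GRCm38, the mm10 build) gave symbols and positions for 26383 of 26519 identifiers; promoters came from the RefSeq table.

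The filter filterByExpr (at least 10 counts, total at least 15) left 12580 genes. After TMM scaling these were tested by the quasi-likelihood F test of edgeR 4.0.16 (R 4.3.3) without covariates; p-values were adjusted by Benjamini and Hochberg and called below 0.05. On counts simulated for this comparison (12580 genes, 200 changed in each of 3 runs) the share of changed genes recovered was 16.0% at 1.5-fold, 53.3% at 2-fold, 82.7% at 4-fold and 93.3% at 8-fold, and 4.91% of calls were false. Libraries of 1 group differed by more than sampling noise (chi-square over its degrees of freedom, 15.9 to 38.8). Alternatives were other scalings and filters, DESeq2 1.42.0, limma-voom (limma 3.58.1), robust dispersion, a replicate block and leaving out each library.

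The genes, the 5 pathway lists and the 11 marker lists were chosen with earlier results of these data known. Named by rule were the 9 genes, Mavs, from each pathway list the called genes, the 2 with the smallest p and the 1 with the highest mean CPM, the called and nearest coding neighbours of Il1a and Il1b, and the 3 nearest patterns to Il1a, Il1b and Il1rn. Il1r1, Il18r1, Il18rap, Pycard, Gsdmd, overlapping genes and the named markers apart from those with the highest CPM were chosen after their values were seen.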

Additional observations from a re-analysis of the deposited data

How the results depend on the processing

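The call of Il1a held in all 14 alternatives, and Casp1 was called in none. Without the filter on low counts 924 of 26519 genes, 5 of the 9 members, 2 other pathway genes and 19 markers were called, against 354, 3, 1 and 11, and with the DESeq2 Wald test 772, 5, 2 and 17. The members added were Il1b (log2 fold change 0.55, adjusted p = 5.4e-05 without the filter and 0.0188 by DESeq2) and Il18 (-1.05 and 0.0165 without the filter, -1.06 and 0.022 by DESeq2). With library size alone, which moved the median of all tested genes to -0.17, 102 genes were higher and 341 lower against 222 and 132, other pathway calls numbered 2, Il18 passed (-1.23, edgeR adjusted p = 0.0479), and the signs of Il1rap (-0.0073) and Nlrp3 (-0.085) turned. Without the filter that median was -0.10.

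Leaving out each library gave 36 to 277 called genes, 1 to 3 members, 0 to 1 other pathway genes and 4 to 11 markers. The called genes numbered 39, 64 and 36 without MAVS KO replicate 1, 2 and 3, and 193, 151 and 277 without WT replicate 1, 2 and 3. Log2 fold changes then ran from 0.36 to 0.72 for Il1b, 0.66 to 0.80 for Il1rn, 1.06 to 1.71 for Il18bp, -0.25 to 0.31 for Il1r2, 0.17 to 0.54 for Casp1 and -0.14 to 0.25 for Nlrp3. These fits held fewer libraries than the main fit, and the cause of the differences between them was not tested. Same-numbered libraries did not clearly deviate together (correlations of 0.04, 0.09 and -0.04 across genes). Differently numbered libraries had correlations from -0.14 to 0.12. With 3 libraries in each group this cannot exclude a shared batch, and the labels give only a number. With the replicate block 414 genes, 3 members, 1 other pathway gene and 13 markers were called. The block could not change the differences of the 3 ratios (0.44, 0.21 and 2.48 on the log2 scale), which are the same by construction. Flipping the signs of the paired differences gave an exact p of 0.25 for Il1a to Il1b and for Il18bp to Il18. For Il1rn to Il1b this exact p was 0.5, and the smallest possible was 0.25. The DESeq2 size factors, the 5 CPM filter, limma-voom and robust dispersion changed no call of the 9 genes. Most 1.5-fold changes could not be called at this depth and number of libraries, and Il18, with 52 to 284 counts, is the least precise of the 9.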
